A study of Mus musculus with 40 samples.

Results

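The 9 genes described here are expressed in basal cells of the conducting airway, and some of them in other cells as well. All 9 were found in the table of 37310 genes (Krt5, Krt14, Krt15, Krt17, Trp63, Sox2, Ngfr, Itga6 and Itgb4). They were chosen by name and not by a rule on their values, although earlier results of these data were known. All 9 were among the 15630 genes that passed the filter on low and invariant values. Basal cells sit on the basement membrane of the airway epithelium and act as its stem cells, giving rise to club and ciliated cells. Their keratins form a filament network that is anchored to the basement membrane by hemidesmosomes, which are built around the integrin made of the products of Itga6 and Itgb4. Squamous carcinoma of the lung is thought to arise through an expansion of such cells, and the transcription factors encoded by Trp63 and Sox2 are expressed in most of these tumors.

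RNA was sequenced from laser capture microdissected (LCM) tissue and from whole lung sections of SWR/J and A/J mice, which develop squamous lesions of the airway when N-nitroso-tris-chloroethylurea (NTCU), an alkylating agent, is painted on the skin. Of 40 samples, 25 passed the quality control of the authors, and these comprised 7 normal samples from mice given the acetone vehicle (total NTCU dose 0 µmol), 5 with mild dysplasia (15 µmol, all SWR/J) and 13 high-grade samples. High-grade joins 9 samples with moderate to severe dysplasia (14 µmol in A/J, 25 or 30 µmol in SWR/J), 2 with severe dysplasia (50 µmol, SWR/J), 1 carcinoma in situ and 1 squamous cell carcinoma (SCC) tumor (both 20 µmol, A/J). Of the 25, 13 were LCM and 12 whole lung samples, and 17 came from SWR/J and 8 from A/J mice. Because the dose follows the grade and the strain, dose and grade cannot be told apart, and the labels do not say which samples share an animal, so that p-values measure the spread between these samples only. The grade label was used for grouping, but for 2 of the 25 the written description named another histology: normal replicate 10 was described as mild dysplasia and mild dysplasia replicate 5 as normal.

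The summed expected counts per sample ranged from 2667390 to 16534700, with a median of 9075420. The median transcript integrity number (TIN), a measure of RNA quality, was 58.7 over the normal samples, 57.8 over the mild and 45.5 over the high-grade samples. A set of thymic and a set of suprabasal libraries stood apart in genes of other tissues. In 9 libraries, the summed level of 5 thymic epithelial genes (Foxn1, Psmb11, Aire, Ccl25 and Prss16) was between 130 and 1120 CPM (counts per 1000000 counts), against at most 26.4 CPM in the other 16. These thymic libraries were 5 of 7 normal samples (replicates 3, 5, 6, 9 and 10), 4 of 13 high-grade samples (moderate to severe dysplasia replicates 4, 8, 10 and 14) and 0 of 5 mild samples. In 5 libraries, the summed level of 12 suprabasal and squamous genes, such as Krt4 and Krt13, was between 17882 and 94987 CPM, against at most 4296 CPM in the other 20. These suprabasal libraries were normal replicate 7, moderate to severe dysplasia replicates 7 and 13, and severe dysplasia replicates 2 and 4, and 5 skeletal muscle genes summed to between 1455 and 9934 CPM in them, against at most 1456 CPM in the other 20. Thymic epithelium itself expresses Krt5, Krt14 and Trp63, and stratified epithelium does too.

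**Figure D1:**
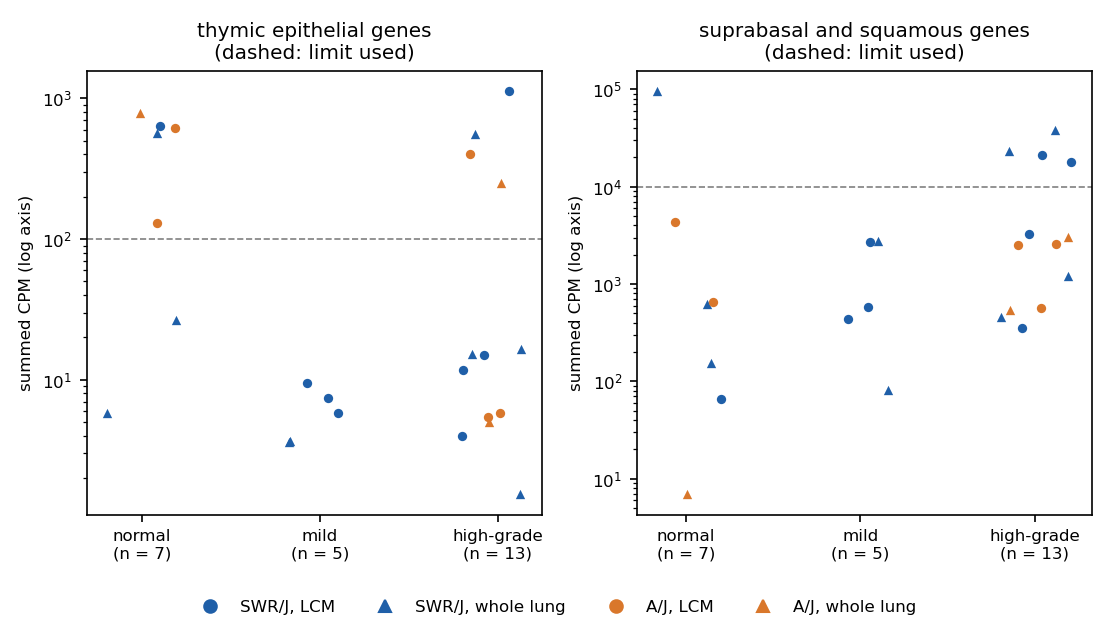
Summed level (CPM, log axis) of the thymic epithelial genes (left) and of the suprabasal and squamous genes (right) in each of the 25 samples by histology; color gives the strain, shape the sample type, and the dashed lines the limits of 100 and 10000 CPM. The thymic limit is passed by 5 normal, 0 mild and 4 high-grade samples, and the suprabasal limit by 1 normal, 0 mild and 4 high-grade samples.

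Several keratin genes share sequence, which bears on how reads of 50 nucleotides are divided among them. In the protein-coding transcripts annotated on the mm9 assembly, 14.4% of the 50-base windows of Krt14 also occur in another gene (188 windows in Krt16 and 55 in Krt17), as do 8.36% of those of Krt5 (150 windows in Krt6a and 49 in Krt6b), 3.75% of Krt17, 0.795% of Ngfr and 0.64% of Krt15. No window of Trp63, Sox2, Itga6 or Itgb4 was shared with another gene in this set. Transcripts that do not code for protein, such as those of pseudogenes, were not searched. The longest coding stretches that Krt14 has in common with Krt16 (134 bases) and with Krt17 (71 bases), from the GENCODE transcripts of that assembly, are shown because a read inside them cannot be assigned to 1 gene by its sequence.
Krt14 and Krt16: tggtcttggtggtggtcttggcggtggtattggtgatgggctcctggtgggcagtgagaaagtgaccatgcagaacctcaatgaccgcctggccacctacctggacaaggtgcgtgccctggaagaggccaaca
Krt14 and Krt17: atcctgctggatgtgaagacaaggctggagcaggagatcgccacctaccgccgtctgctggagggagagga

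Krt5, Krt14 and Trp63 rose and fell together across samples, and the p63 protein encoded by Trp63 is a known regulator of both keratins. The RefSeq promoter sequences (250 bases before the start, GRCm38.p6) were held for 4 of the 9 genes (Krt5, Krt14, Sox2 and Ngfr) and were searched on both strands for the p63 half-site, the TATA box (TATAAA), the AP-2 site (GCCNNNGGC) and the SOX core (CATTGT). The only match was 1 p63 half-site in the Krt5 promoter, from 95 to 86 bases before the start. Of all 32851 promoters of this length, 7.13% held a p63 half-site, 12.4% TATAAA, 13.7% GCCNNNGGC and 10.7% CATTGT. The promoters of Krt5 (chr15:101712906-101713155, reverse strand) and Krt14 (chr11:100206031-100206280, reverse strand) are shown for this pair of partner keratins, with the half-site in capitals.
Krt5: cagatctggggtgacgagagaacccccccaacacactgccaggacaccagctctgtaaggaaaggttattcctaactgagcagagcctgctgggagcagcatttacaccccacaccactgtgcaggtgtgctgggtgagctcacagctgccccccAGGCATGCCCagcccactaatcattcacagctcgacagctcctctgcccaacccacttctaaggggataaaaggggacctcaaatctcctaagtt
Krt14: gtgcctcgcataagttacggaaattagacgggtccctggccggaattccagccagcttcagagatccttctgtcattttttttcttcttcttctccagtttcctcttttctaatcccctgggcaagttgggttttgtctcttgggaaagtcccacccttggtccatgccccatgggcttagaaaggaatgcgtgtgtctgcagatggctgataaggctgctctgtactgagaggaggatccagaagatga

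Of the 9 genes, the keratins were the most abundant per length of transcript. The median level over the 25 samples, in CPM per kilobase of exon, was 355 for Krt15, 165 for Krt14, 130 for Krt5 and 47.0 for Krt17. It was 16.1 for Sox2, 7.66 for Itga6, 5.50 for Itgb4, 3.32 for Trp63 and 1.30 for Ngfr. Some neighbours in this order were not separated within samples: Krt14 exceeded Krt5 in 10 of 25 samples and Itga6 exceeded Itgb4 in 13 of 25, whereas Krt15 exceeded Krt14 in 22 and Krt5 exceeded Krt17 in 23 of 25.

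Histology was the first comparison, as the samples were collected to follow the steps from normal airway to carcinoma. Against normal samples, none of the 9 genes passed the test for mild dysplasia or for the high-grade group, and the signs of the fitted differences turned with the model. All 9 were positive in both comparisons with TIN, strain and sample type as covariates, whereas without TIN Krt5, Krt14, Krt15 and Trp63 were negative in mild dysplasia (-1.07, -0.065, -0.28 and -0.76), and with the thymic sum as a further covariate 4 of the 9 were negative in high-grade samples. In mild dysplasia, 12.6% of all genes tested passed (1967 of 15630 by the edgeR quasi-likelihood test at an adjusted p below 0.05), and 0 of the 9 genes did. At an unadjusted p below 0.05, 2 of the 9 did (Sox2 and Itgb4), against 32.8% of all genes (5128 of 15630). With DESeq2 1 of the 9 passed (Sox2), against 3653 of 15630 genes. In high-grade samples, 0.0192% of all genes passed (3 of 15630), and 0 of the 9 genes did, with 0 at an unadjusted p below 0.05, against 9.09% of all genes, and 0 with DESeq2. The median log2 fold change of the 9 genes was 1.27 for mild dysplasia and 0.46 for the high-grade group. That of all genes tested was -0.03 and 0.00. In mild dysplasia the median was 1.52 for ciliated cell, 1.96 for alveolar type 1, 1.07 for endothelial and 2.09 for cardiac muscle genes. It was 0.85 for club cell, 0.16 for macrophage, -1.60 for skeletal muscle and -6.28 for T cell genes. A positive median in mild dysplasia was thus not particular to the 9 genes. The 2 comparisons share the same normal samples. In these bulk samples, fewer cells of a type and less RNA per cell cannot be told apart.

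Krt5 encodes the type II keratin that pairs with the type I keratins 14 and 15 in basal cells (ENSMUSG00000061527, mm9 chr15:101537501-101543322). Its level in log2 CPM was lowest at 3.58, had a median of 7.37 and was highest at 10.18 in the normal samples. In mild dysplasia it was 7.14, 5.40, 9.15, 6.92 and 9.75 in replicates 3, 4, 1, 2 and 5, and in the high-grade samples it ranged from 6.87 to 11.44 with a median of 9.42. All mild samples lay within the normal range, and 1 of 13 high-grade samples lay above it. The log2 fold change was 0.32 ± 1.15 (SE) for mild dysplasia and 0.24 ± 0.69 for the high-grade group, with adjusted p values of 0.875 and 0.921 (edgeR). The 95% interval of the latter ran from -1.21 to 1.69, so that a change of more than 2-fold in either direction was not excluded by it.

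Krt14 (ENSMUSG00000045545, mm9 chr11:100064476-100068862) encodes the main type I keratin of basal cells in stratified epithelia. In normal samples its log2 CPM was between 1.77 and 9.22 with a median of 5.03. The mild samples were at 5.81, 5.59, 8.55, 7.22 and 9.84 (same order of replicates), and in high-grade samples between 6.49 and 10.52 with a median of 8.54. All 13 high-grade and all 5 mild samples were above the normal median, and the highest normal value was passed by 6 of 13 high-grade samples, but normal replicates 7 and 10 were as high as many high-grade samples. The log2 fold change was 1.80 ± 1.25 in mild dysplasia (adjusted p = 0.321, edgeR) and 1.39 ± 0.78 in high-grade samples (adjusted p = 0.608, edgeR).

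Krt15 (ENSMUSG00000054146, mm9 chr11:99993072-99997263), a type I keratin found in stem cell compartments of several epithelia, lay between 1.42 and 10.89 log2 CPM in normal samples with a median of 6.62. In mild dysplasia it was 7.07, 6.80, 10.26, 9.65 and 11.21, and in high-grade samples it was between 7.65 and 11.67 with a median of 9.69. As with Krt14, every mild and high-grade sample exceeded the normal median, and 5 of 7 normal samples were below the lowest high-grade sample. The fitted log2 fold changes were 1.44 ± 1.25 and 0.46 ± 0.75, with adjusted p values of 0.434 and 0.849 (edgeR). Krt17 (ENSMUSG00000035557, mm9 chr11:100117531-100122343), a keratin of injured and hyperproliferative epithelium, spanned 0.11 to 7.96 in normal samples, 2.80 to 7.63 in mild dysplasia and 3.24 to 8.23 in high-grade samples. The ranges overlapped, with 3 of 7 normal samples below the lowest high-grade sample and 2 of 13 high-grade samples above the highest normal sample, and the log2 fold changes were 0.10 ± 1.03 and 0.75 ± 0.86 (adjusted p = 0.960 and 0.788, edgeR).

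Trp63 (ENSMUSG00000022510, mm9 chr16:25683849-25892188) encodes the transcription factor p63, which maintains the basal cell state. Its log2 CPM in normal samples was between 0.36 and 6.27 with a median of 3.65. The values in mild dysplasia were 3.54, 1.75, 4.81, 4.15 and 5.55, and in high-grade samples it was between 3.38 and 6.52 with a median of 5.34. All 5 mild samples were inside the normal range and 1 of 13 high-grade samples was above it, and the log2 fold changes were 0.12 ± 0.79 and 0.34 ± 0.52 (adjusted p = 0.936 and 0.839, edgeR). 

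Sox2 (ENSMUSG00000074637, mm9 chr3:34548927-34551383), a transcription factor of the airway epithelium that is amplified in many squamous lung cancers, came closest to the threshold in mild dysplasia. It was between 0.52 and 5.73 log2 CPM in normal samples and at 4.003 in the median sample. Normal replicate 5 held 39.6 CPM of Sox2 beside 29.7 of Krt5, 2.97 of Trp63 and 185268 of the club cell gene Scgb1a1. The part of other airway cells in the level of Sox2 was not tested. The mild samples were at 3.49, 4.93, 5.77, 6.20 and 6.18 log2 CPM of Sox2, and the 3 LCM samples, which are the last 3 of these values, were above the highest normal sample. In high-grade samples Sox2 was between 2.91 and 6.30 with a median of 5.34, and 4 of 13 exceeded all normal samples. The log2 fold change in mild dysplasia was 1.81 ± 0.63 (unadjusted p = 0.00901, adjusted p = 0.0592, edgeR), and in high-grade samples it was 0.46 ± 0.43 (adjusted p = 0.750, edgeR). Sox2 passed the threshold in mild dysplasia with DESeq2 (adjusted p = 0.0123) and with edgeR without normal replicate 7, a suprabasal library, or without all 5 suprabasal libraries (adjusted p = 0.0364).

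Ngfr (ENSMUSG00000000120, mm9 chr11:95430132-95449049), the low-affinity nerve growth factor receptor used to sort mouse airway basal cells, was the least abundant of the 9 genes. It was between -0.30 and 4.53 log2 CPM in normal samples, and in mild dysplasia it was 2.96, 1.29, 3.82, 3.50 and 4.54. In high-grade samples it was between 1.005 and 4.35, none above the highest normal sample, which was replicate 10. The log2 fold changes were 1.27 ± 0.70 and 0.44 ± 0.55 (adjusted p = 0.204 and 0.806, edgeR). Schwann cells also express Ngfr, and the summed level of 5 Schwann cell and neuron genes was alike in the groups, with medians of 78.3, 71.4 and 77.1 CPM in normal, mild and high-grade samples.

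The integrin subunits differed from each other in their spread. Itga6 (ENSMUSG00000027111, mm9 chr2:71583673-71696473), which also pairs with beta 1 integrin outside hemidesmosomes and is expressed in endothelium, varied least of the 9 genes, with an SD of 0.48 on the log2 scale over the 25 samples against 2.48 for Krt15. It was between 5.18 and 6.75 in normal samples, 5.67 and 6.52 in mild dysplasia and 5.35 and 6.83 in high-grade samples, and the log2 fold changes were 0.34 ± 0.32 and 0.31 ± 0.24 (adjusted p = 0.484 and 0.697, edgeR). Itgb4 (ENSMUSG00000020758, mm9 chr11:115836023-115869726), the other subunit of the hemidesmosome integrin, was between 2.39 and 6.64 in normal samples with a median of 4.53. In mild dysplasia it was 5.27, 5.59, 5.81, 6.21 and 6.22, and in high-grade samples it was between 4.55 and 7.21 with a median of 5.28. Every mild and high-grade sample exceeded the normal median, and the log2 fold change was 1.41 ± 0.64 in mild dysplasia (unadjusted p = 0.0386, adjusted p = 0.130, edgeR) and 0.76 ± 0.45 in high-grade samples (adjusted p = 0.620, edgeR).

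**Figure D2:**
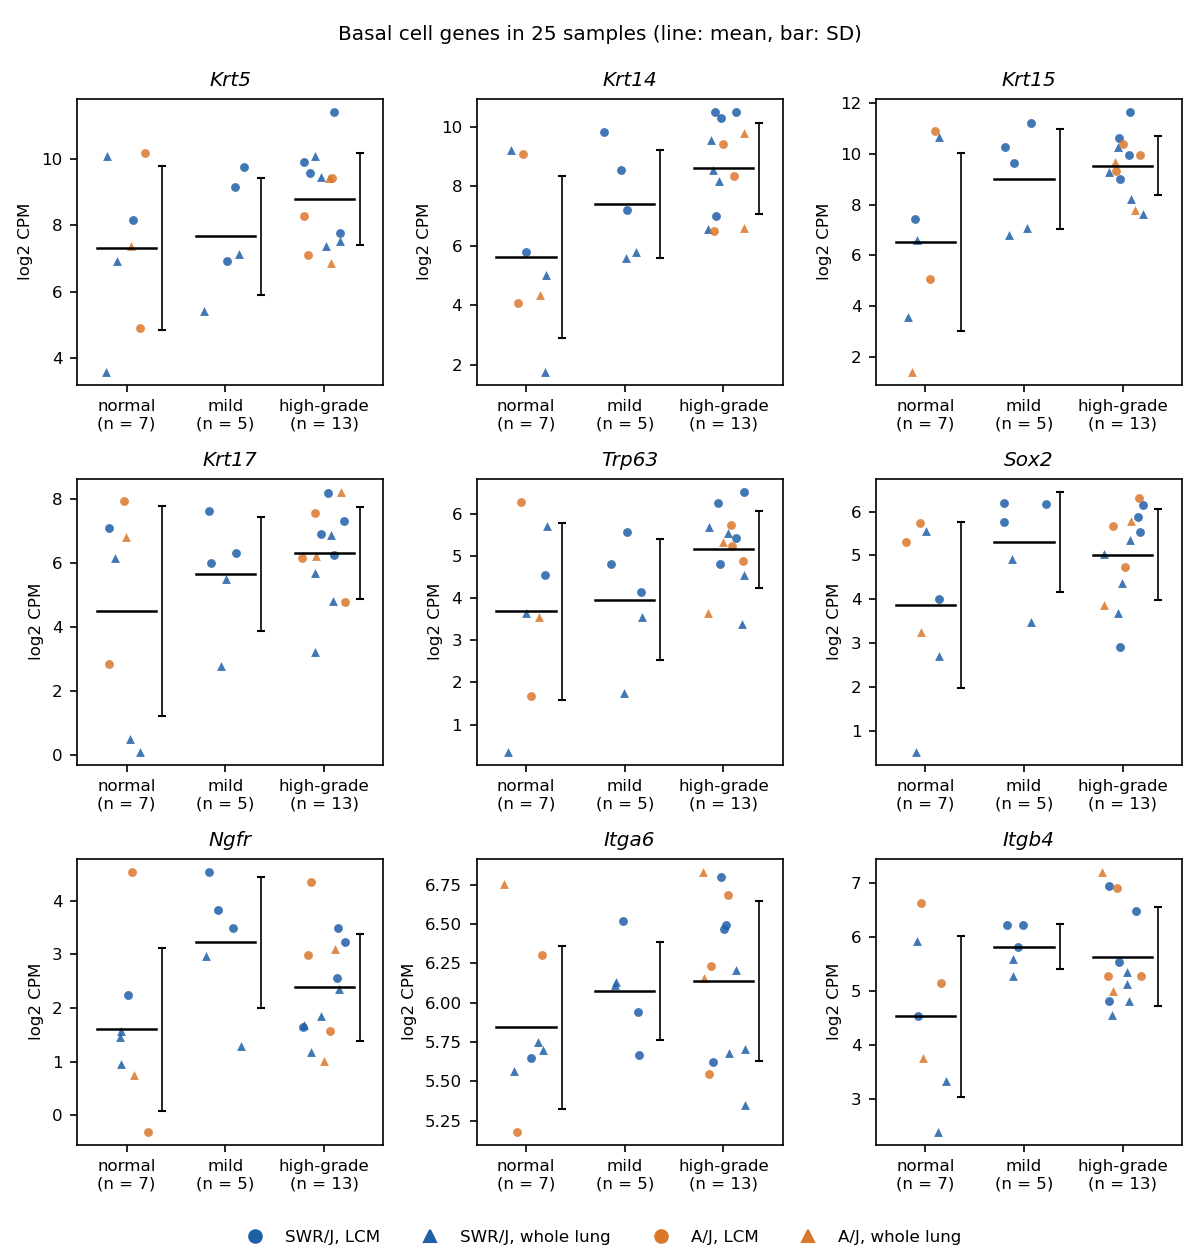
Level (log2 CPM, TMM normalized) of each of the 9 genes in each of the 25 samples by histology; color gives the strain, shape the sample type, the line the group mean and the bar the SD. The normal samples spread widest, for example from 1.77 to 9.22 for Krt14, and overlap the other groups for every gene.

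Most of the spread was among normal samples. The SD of the 7 normal samples was larger than that of the 13 high-grade samples for each of the 9 genes, for example 3.52 against 1.16 for Krt15 and 2.11 against 0.91 for Trp63. Normal replicate 8, a whole lung sample, was the lowest of the 25 in Krt5, Krt14, Trp63, Sox2 and Itgb4, with 77.5 expected counts of Krt5. Normal replicates 7 (suprabasal library) and 10 (thymic library, described as mild dysplasia) were the 2 highest normal samples in Krt5, Krt14, Krt15, Trp63 and Sox2. In mild dysplasia against normal samples, 5 of 5 T cell genes, 3 of 4 thymocyte genes and 3 of 4 thymic epithelial genes tested were lower. The share of all genes that passed in either direction was 12.6%. Without the 9 thymic libraries, which left 2 normal samples, 0 of the 9 genes passed in either comparison. With the log2 thymic sum as a covariate, 0 of the 9 passed in either comparison. The difference from normal samples was then -0.26 for Krt5, -0.081 for Krt15, -0.21 for Sox2 and -0.030 for Ngfr in high-grade samples, and -0.56 for Krt5 in mild dysplasia.

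Between high-grade and mild samples, 0 of the 9 genes passed (edgeR), where 0.339% of all genes passed (53 of 15630), and 0 of 9 passed with DESeq2. The log2 fold changes lay between -1.35 and 0.66, and Sox2 had the lowest of them (-1.35 ± 0.62, unadjusted p = 0.0396, adjusted p = 0.198, edgeR), the only one with an unadjusted p below 0.05, against 22.6% of all genes. Over the rank of grade, from 0 in normal samples to 4 in carcinoma in situ and SCC tumor, 0 of the 9 genes passed, against 0.384% of all genes (60 of 15630). The slopes were between 0.14 and 0.56 log2 units per grade, and 2 had an unadjusted p below 0.05, against 13.6% of all genes (Krt14, 0.56 ± 0.25, and Itgb4, 0.34 ± 0.15, with adjusted p values of 0.331 and 0.336, edgeR), whereas 0 passed with DESeq2. The single carcinoma in situ sample held the highest Krt17, Itga6 and Itgb4 levels of the 25 (8.23, 6.83 and 7.21 log2 CPM), and the single SCC tumor the highest Sox2 (6.30). With 1 sample each, these values have no replicate check.

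**Figure D3:**
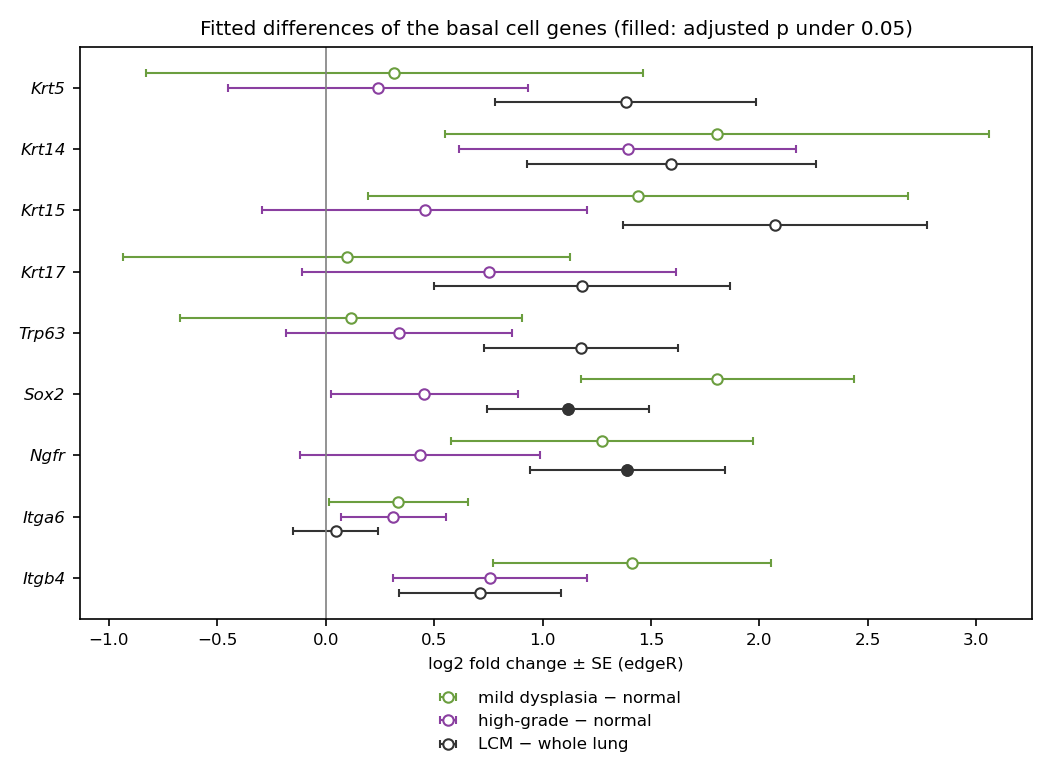
Log2 fold change ± SE (edgeR, with median TIN, strain and sample type in the model) of each of the 9 genes for mild dysplasia against normal, high-grade against normal and LCM against whole lung; filled points have an adjusted p below 0.05. All points are above 0 in this model, whereas some turn below 0 without TIN or with the thymic sum as a covariate, and only Sox2 and Ngfr in LCM against whole lung are filled.

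The balance between the basal keratins, in contrast, differed between normal and high-grade samples. Because both genes are measured in the same library, the ratio of Krt14 to Krt5 does not depend on library size. For every 100 expected counts of Krt5, the normal samples held a median of 27.1 counts of Krt14 (12.2 to 56.2), the mild samples 106 (39.6 to 124) and the high-grade samples 84.0 (50.8 to 176). On the log2 scale the ratio was -1.69 ± 0.82 (SD, n = 7) in normal, -0.27 ± 0.69 (n = 5) in mild and -0.18 ± 0.66 (n = 13) in high-grade samples.

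All 13 high-grade samples had a ratio of Krt14 to Krt5 above the mean of the normal samples, and 10 of them were above the highest normal sample, which was replicate 5. Replicates 7 and 10 of moderate to severe dysplasia and severe dysplasia replicate 4 overlapped with the normal samples. The difference from normal was 1.51 (two-sided exact permutation test, p = 0.000206, adjusted p = 0.00165 over the 8 ratio tests). In mild dysplasia, 4 of 5 samples were above the highest normal sample and the difference was 1.42 (exact permutation p = 0.0152, adjusted p = 0.0606), which did not pass.

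This permutation test has no covariates, and so the difference for high-grade samples was computed within strata as well. It was 1.28 in LCM samples alone (7 against 3, exact permutation p = 0.0333), 1.66 in whole lung samples alone (6 against 4, p = 0.0190), 1.48 in SWR/J alone (8 against 4, p = 0.0202) and 1.56 in A/J alone (5 against 3, p = 0.0179, the smallest that an exact test of these samples can give). None of these 4 passed after adjustment over the ratio tests of its stratum. After regression on median TIN, strain and sample type it was 1.37. It was 1.74 without the suprabasal libraries (exact permutation, adjusted p = 0.00480), and 1.29 without the thymic libraries (9 against 2, exact permutation p = 0.0727, where the smallest possible is 0.0182).

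Genes that share sequence with the pair were read beside it. Krt16 was between 0 and 6.94 CPM for every 100 CPM of Krt14 in high-grade samples (median 3.67), between 0 and 0.415 in mild (median 0) and between 0 and 5.14 in normal samples (median 1.17). Krt6a had a median of 37.3 CPM per 100 CPM of Krt5 in high-grade samples (4.33 to 200.2), 31.5 in mild (7.91 to 53.9) and 9.09 in normal samples (0.198 to 26.3). Krt6a and Krt16 are keratins of activated and hyperproliferative epithelium, and neither passed the test in mild dysplasia (adjusted p = 0.267 and 0.995, edgeR) or in high-grade samples (0.537 and 0.524). The part of reads assigned between these genes in the ratio was not tested.

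Of the other ratios to Krt5, none passed. The log2 ratio of Krt15 to Krt5 was higher by 1.54 in high-grade samples and by 2.12 in mild dysplasia (exact permutation p = 0.0235 and 0.0328, adjusted p = 0.0627 and 0.0657). Normal replicate 9, with 30 expected counts of Krt15 beside 2021 of Krt5, had the lowest ratio (-5.95), and without it the differences were 0.67 and 1.26. The ratio of Krt17 to Krt5 was -9.99 in normal replicate 7, with 2.13 counts of Krt17 beside 2542 of Krt5, and without that sample its difference for high-grade samples turned from 0.36 to -0.84. The log2 ratio of Trp63 to Krt5 was -3.634 ± 0.44 (SD, n = 7) in normal and -3.635 ± 0.76 (n = 13) in high-grade samples (exact permutation p = 0.998), so that the groups overlapped.

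**Figure D4:**
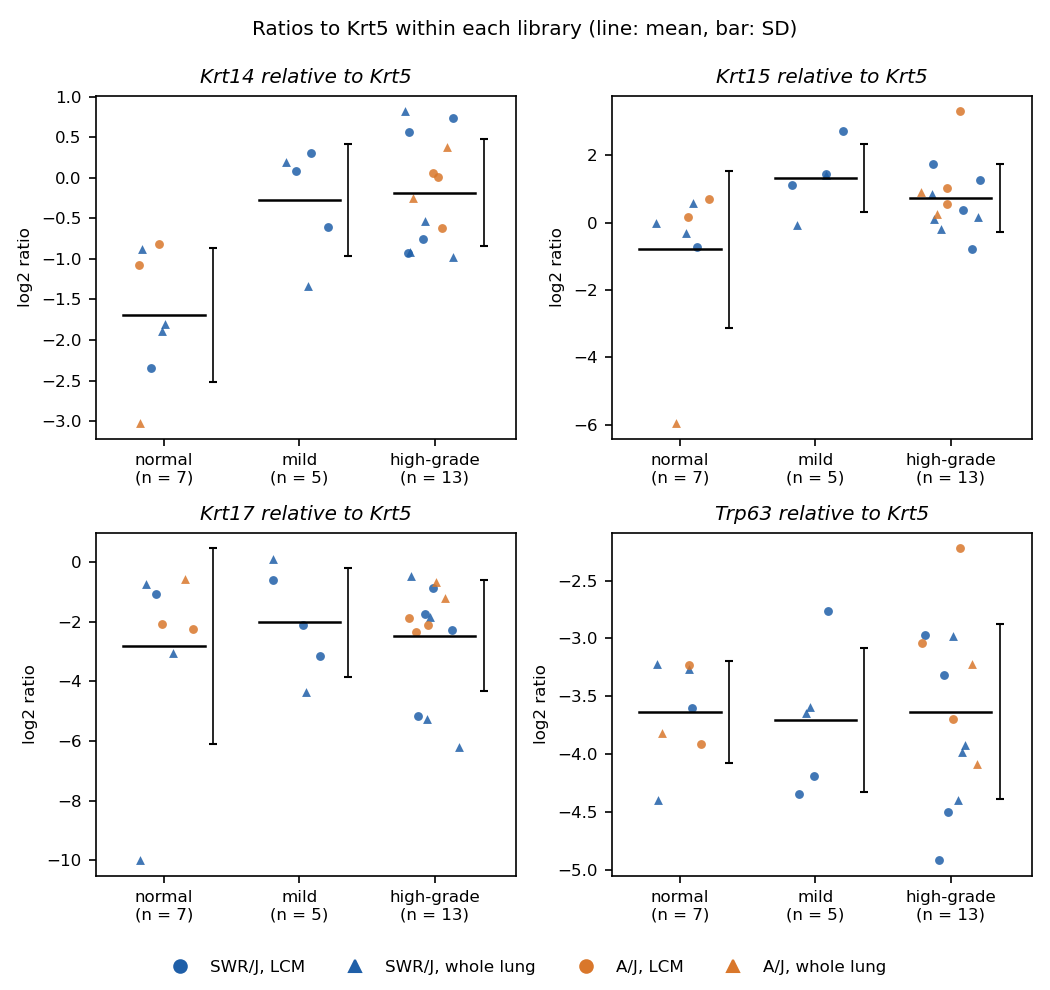
Log2 ratio of Krt14, Krt15, Krt17 and Trp63 to Krt5 within each of the 25 libraries by histology; color gives the strain, shape the sample type, the line the group mean and the bar the SD. For Krt14, 10 of 13 high-grade and 4 of 5 mild samples are above the highest normal sample, and single low normal samples stand out for Krt15 (-5.95) and Krt17 (-9.99).

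LCM was used to take selected tissue out of the section, and the basal cell genes were compared between LCM and whole lung samples in the same model. Of the 9 genes, 2 were higher in LCM samples (Sox2 and Ngfr) and 0 lower, against 14.6% of all genes that passed in either direction (2289 of 15630), and 6 of the 9 had an unadjusted p below 0.05, against 30.4% of all genes (4753 of 15630). With DESeq2 6 of the 9 passed, against 3348 of 15630 genes. All 9 fitted differences were positive, except that Itga6 was at -0.031 without the 2 samples described with another histology and at -0.13 without the suprabasal libraries, with a median of 1.18 against -0.03 for all genes tested.

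Sox2 was between 2.91 and 6.30 log2 CPM in the 13 LCM samples with a median of 5.73, and between 0.52 and 5.78 in the 12 whole lung samples with a median of 4.11. Ngfr was between -0.30 and 4.54 in LCM samples with a median of 3.23, and between 0.76 and 3.10 in whole lung samples with a median of 1.51. The 2 sample types overlapped for both genes. Sox2 rose by 1.12 ± 0.37 on the log2 scale (adjusted p = 0.0475, edgeR) and Ngfr by 1.39 ± 0.45 (adjusted p = 0.0408, edgeR). These calls were near the threshold: neither passed in SWR/J samples alone, without the 2 samples described with another histology or without the thymic libraries.

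Krt15 and Krt14 had larger fitted differences between LCM and whole lung samples than Sox2 and Ngfr, but with larger errors. The differences were 2.07 ± 0.70 for Krt15 (adjusted p = 0.0505, edgeR) and 1.59 ± 0.67 for Krt14. Of the suprabasal and squamous genes, Krt16 alone passed (3.32 ± 0.99, adjusted p = 0.0283, edgeR), and it shares sequence with Krt14. Krt5 was at 1.38 ± 0.60 and Krt17 at 1.18 ± 0.68. Trp63 was at 1.18 ± 0.45 (adjusted p = 0.0786, edgeR) and Itgb4 at 0.71 ± 0.37. Itga6 was at 0.05 ± 0.20, with a 95% interval from -0.36 to 0.45. In the same comparison, 14.6% of all genes passed in either direction. Of the airway luminal genes, 3 of 5 club cell genes (Scgb3a1, Cyp2f2 and Bpifa1) were higher in LCM samples. So were 2 of 5 ciliated cell genes (Tppp3 and Dynlrb2) and 2 of 6 luminal epithelial genes (Krt19 and Epcam). All 5 endothelial genes, 3 of 5 alveolar type 1 genes and 2 of 5 alveolar type 2 genes were lower. Of 10 other basal cell genes, 0 were higher and 1 was lower (Bcam, -1.01 ± 0.34, adjusted p = 0.0466, edgeR), a laminin receptor that endothelium also expresses. Dlk2 (1.53 ± 0.53, adjusted p = 0.0536, edgeR), Aqp3 (1.81 ± 0.72) and F3 (1.09 ± 0.43) had positive differences that did not pass. Besides Bcam, only Pdpn was negative (-0.29 ± 0.24).

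Between strains, none of the 9 genes passed the test, against 1.02% of all genes (159 of 15630), and the fitted differences (A/J minus SWR/J) lay between 0.35 for Itga6 and 1.80 for Krt14. Sox2 alone had an unadjusted p below 0.05 (1.76 ± 0.63, adjusted p = 0.158, edgeR), against 17.5% of all genes. It was also the only one of the 9 to pass with DESeq2 (adjusted p = 0.0316), where 961 of 15630 genes passed. Sox2 was between 3.24 and 6.30 log2 CPM in the 8 A/J samples and between 0.52 and 6.20 in the 17 SWR/J samples, so the strains overlapped. Of the 10 other basal cell genes, 1 was higher in A/J, Pdpn (2.24 ± 0.38, adjusted p = 0.00178, edgeR), the gene of podoplanin, which alveolar type 1 cells and lymphatic vessels express as well.

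The effect of high-grade histology was then compared between sample types and between strains by interaction terms. For sample type, 0 of the 9 genes and 0% of all genes passed (0 of 15630, edgeR), with 1149 genes and 0 of the 9 at an unadjusted p below 0.05 and 0 of the 9 with DESeq2. For strain, 0 of the 9 genes and 0% of all genes passed (0 of 15519, edgeR), with 615 genes and 0 of the 9 at an unadjusted p below 0.05 and 0 of the 9 with DESeq2. The errors were wide, for example -0.76 ± 1.75 for Krt14 by sample type and -0.34 ± 1.63 by strain. The narrowest by sample type was that of Itga6 (0.64 ± 0.46), with a 95% interval from -0.32 to 1.61.

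Partners of the integrin in the hemidesmosome and basement membrane were examined beside the 9 genes. In mild dysplasia, 3 of 10 such genes were higher than in normal samples and 0 lower, where 12.6% of all genes passed in either direction (1967 of 15630). The 3 were Cd151 (0.94 ± 0.25, adjusted p = 0.0267, edgeR), Lama5 (1.94 ± 0.56, adjusted p = 0.0317) and Itgb1 (1.14 ± 0.28, adjusted p = 0.0216). They encode a tetraspanin that binds the integrin, a laminin chain and the beta 1 integrin subunit. All 3 are also expressed in cells other than basal cells. Col17a1, which encodes the hemidesmosomal collagen, was at 0.54 ± 1.27. The median log2 fold change of the 10 was 0.91, and all 10 were positive. All 5 ciliated cell, all 5 alveolar type 1 and all 5 endothelial genes were positive in mild dysplasia as well, whereas all 5 T cell genes were lower. In high-grade samples, 0 of the 10 passed, against 0.0192% of all genes, with a median log2 fold change of 0.48.

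Among 10 other basal cell genes, 1 was higher in mild dysplasia, Pdpn (1.56 ± 0.39, adjusted p = 0.0216, edgeR). This count was near the share of all genes that passed in either direction (12.6%). The Notch ligand gene Jag2 was at 1.38 ± 0.47 (adjusted p = 0.0553, edgeR). In high-grade samples 0 of these 10 passed. Of 12 suprabasal and squamous genes, 11 were tested, and 0 of them passed in mild dysplasia or in high-grade samples, with a median log2 fold change of -0.03 and 0.61. Of the 6 luminal epithelial genes, 0 passed in either, with medians of 1.45 and 0.69. The fibroblast genes moved in mild dysplasia too, with 3 of 5 higher, against the same 12.6% of all genes.

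The levels of most of the 9 genes followed one another across samples. Over the 25 samples, Pearson's r of log2 CPM was 0.95 between Krt5 and Trp63, 0.91 between Krt5 and Krt14, 0.89 between Sox2 and Itgb4 and 0.87 between Krt14 and Krt15. Over all 25, Krt17 was at 0.32 to 0.63 and Itga6 at 0.19 to 0.63 with the other 8 genes. Within the 13 LCM samples, Krt5 and Trp63 were at 0.91, Krt5 and Krt14 at 0.91, and Krt14 and Itga6 at 0.92. Krt17 was there at 0.69 to 0.77 with Krt5, Krt14, Krt15 and Trp63, and Sox2 at 0.21 to 0.47 with the same 4 genes. In the 12 whole lung samples, Krt17 was at -0.06 to 0.20 and Sox2 at 0.76 to 0.92 with them. The points share the library and its mixture of cells, and the values are a description.

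**Figure D5:**
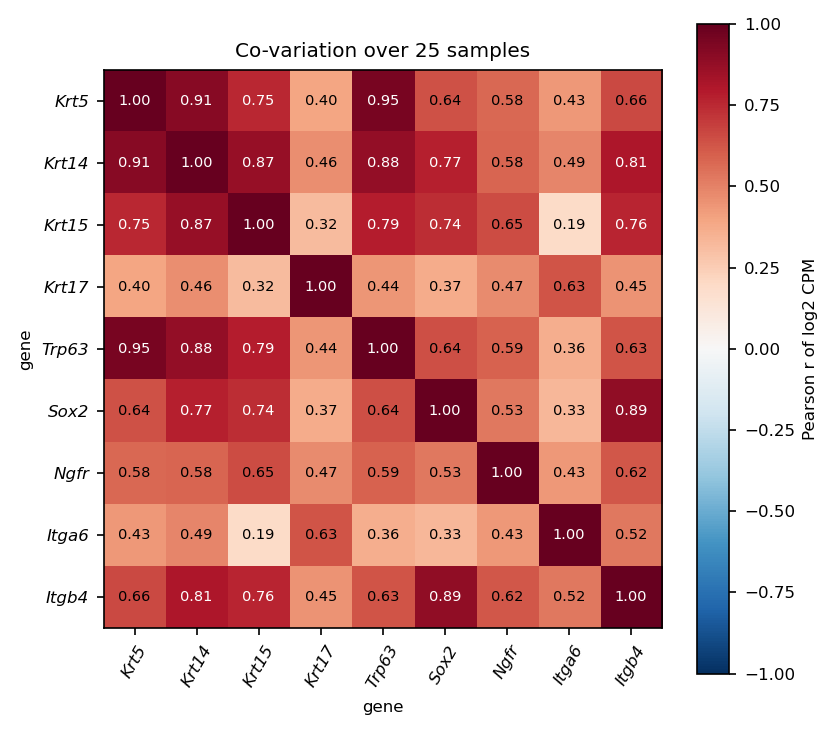
Pearson's r of log2 CPM between each pair of the 9 genes over the 25 samples, with the value in each cell. Krt5, Krt14, Krt15 and Trp63 form a block of high values (0.75 to 0.95), Sox2 and Itgb4 are at 0.89, and the 5 lowest values all involve Krt17 or Itga6.

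Outside the 9 genes, the genes most like Trp63 and Krt5 were sought among 14211 genes (mean log2 CPM of 1 or more), after regression on median TIN, strain and sample type. For Trp63 the 5 with the largest r were Wnt4 (0.88), a Wnt ligand, Tcfap2a (0.85), the transcription factor AP-2 alpha, Lgi4 (0.85), Fxyd3 (0.85), a regulator of the sodium pump, and Dlk2 (0.85), a membrane protein related to the Notch ligands. For Krt5 they were Fxyd3 (0.91), Sfn (0.90), the epithelial 14-3-3 protein, Lgi4 (0.90), Wnt4 (0.89) and Sox15 (0.89), a transcription factor. Wnt4, Lgi4 and Fxyd3 were on both lists. The regression did not include the thymic or the suprabasal sum, and the part of those libraries in these values was not tested.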

How the data were processed

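The authors prepared polyadenylated RNA libraries (TruSeq), and their processing notes name Trimmomatic, STAR, RSEM, edgeR and mm9. Per gene, the authors deposited expected counts made with RSEM and not normalized, for 40 samples. Samples were grouped by the deposited grade label. All 37310 gene identifiers were found in an annotation of the same assembly, which gave symbols and positions.

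The expected counts of the 25 samples that passed were rounded and tested with edgeR 4.0.16 in R 4.3.3 (TMM, robust quasi-likelihood, adjusted for strain, sample type and median TIN) over the 15630 genes whose log2 CPM (prior count 2) had an interquartile range above 0 and a sum above 1. The model assumed that samples are independent. Benjamini-Hochberg adjustment ran over all genes tested, with a threshold of 0.05. The SE is the fold change divided by the square root of F, and intervals use 19 degrees of freedom. DESeq2 1.42.0, other scalings, filters and covariates, and leaving out samples were alternatives. Ratios to Krt5 used exact permutation tests. The tests were tried on simulated counts. Counting error is part of the spread between samples, and reads shared between genes were divided by RSEM.

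The genes, lists and comparisons were chosen with earlier results of these data known. All 9 genes, the list genes that passed or had the smallest p, and the 5 genes most like Trp63 and Krt5 were named by rule, and Krt6a, Krt16, Col17a1 and the suprabasal and thymic library limits were picked after values were seen. Some results for gene lists (smooth muscle, macrophage, cardiac and skeletal muscle) had 0 to 2 calls of 5 genes in each comparison.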

Additional observations from a re-analysis of the deposited data

Results flagged for a closer look

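Among 39 sets of 4 to 10 samples (the 9 genes and the 4 ratios to Krt5, each in normal, mild and moderate to severe samples), 2 held a sample whose gap to its nearest neighbour passed Dixon's 95% limit for its group, and chance gives about 1 in 20. The log2 ratio of Krt15 to Krt5 was -5.95 in normal replicate 9 (whole lung, A/J), where the gap was 0.783 of the range against a limit of 0.568. The log2 ratio of Krt17 to Krt5 was -9.99 in normal replicate 7 (whole lung, SWR/J, a suprabasal library), with a gap of 0.735 of the range.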

How the results depend on the processing

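The number of the 9 genes that passed in LCM against whole lung (2) was 6 with DESeq2, 1 without TIN as a covariate, 4 with the thymic sum as a covariate, 0 with no gene filter, in SWR/J alone, without the 2 samples described with another histology and without the thymic libraries, and 0 to 3 when samples were left out in turn (0 without mild dysplasia replicates 3 or 5 or normal replicate 10). In mild dysplasia (0) it was 1 with DESeq2 and without the suprabasal libraries, and 0 to 2 when samples were left out (2, Sox2 and Itgb4, without normal replicate 7). For strain (0) it was 1 with DESeq2. For high-grade against normal and against mild dysplasia, the rank of grade and both interactions it was 0 under every alternative run. Without the regression, 3 of the 5 genes most like Trp63 and 5 of the 5 most like Krt5 were the same. The thymic and suprabasal settings and the single strains for ratios were chosen after the data were seen. Within LCM (1.28), whole lung (1.66), SWR/J (1.48) and A/J (1.56) samples, the log2 ratio of Krt14 to Krt5 in high-grade samples lost its call. It also lost its call without the thymic libraries (1.29). Each of these settings held fewer samples than the main test, and the part of sample number in the lost calls was not tested. In mild dysplasia the ratio passed without the suprabasal libraries (1.56). Leaving samples out in turn gave 1.29 to 1.65 in high-grade and 1.199 to 1.69 in mild dysplasia.

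Only differences that had not passed changed sign, and the cause was not tested. In mild dysplasia without TIN as a covariate, Krt5 was -1.07, Krt14 -0.065, Krt15 -0.28 and Trp63 -0.76. Without strain and sample type Krt5 was -0.24 and Trp63 -0.30, and with the thymic sum Krt5 was -0.56. Krt17 was -0.20 without the samples described with another histology, -0.23 in SWR/J alone and -0.0036 without the suprabasal libraries. Leaving samples out gave -0.32 to 0.97 for Krt5, -0.36 to 0.51 for Krt17 and -0.34 to 0.58 for Trp63. In high-grade samples with the thymic sum, Krt5 was -0.26, Krt15 -0.081, Sox2 -0.21 and Ngfr -0.030. Itga6 in LCM samples was -0.031 without the samples described otherwise and -0.13 without the suprabasal libraries. The ratio of Krt17 to Krt5 was -0.17 in LCM and -0.40 without the suprabasal libraries in mild dysplasia (-0.40 to 1.38 leaving samples out), and -0.55 in LCM and -0.011 in A/J in high-grade samples (-0.84 to 0.73). The ratio of Trp63 to Krt5 was 0.0031 without the samples described otherwise, 0.058 in whole lung and 0.10 without the thymic libraries in mild dysplasia (-0.31 to 0.086). In high-grade samples it was 0.040 with a prior count of 0.25, 0.056 in LCM, 0.095 without the suprabasal libraries and 0.40 in A/J (-0.13 to 0.068).

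No paired analysis was made, because the labels do not say which samples come from the same animal. The titles of mild dysplasia replicates 2 and 5 share a stem, and whether both come from the same animal is not stated.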

Other observations

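The 15 libraries that did not pass quality control entered no comparison. The ratio of Krt14 to Krt5 was read in the 7 of them with at least 100 expected counts of Krt5, a limit chosen after the data were seen. For every 100 counts of Krt5, normal replicate 2 held 3.07 counts of Krt14. Mild dysplasia replicate 7 held 109, moderate to severe dysplasia replicates 1 and 12 held 88.3 and 72.0, severe dysplasia replicates 3 and 5 held 107 and 81.0, and carcinoma in situ replicate 1 held 98.9. The written description of mild dysplasia replicate 7 named it normal. Read by that description, it would be a normal library above all 7 normal samples that passed. The library with a normal grade label, with 3.75 counts of Krt14 beside 122 of Krt5, was the lowest of the 7. It lay below all 7 normal samples that passed (12.2 to 56.2), and the other 6 lay between 72.0 and 109. The median TIN of these 7 was between 14.2 and 31.1, and with 1 library labelled normal no test was made. Of the failed normal libraries below the limit, replicate 1 held 2 counts of Krt14 beside 16 of Krt5, and replicate 4 held 8 beside 9.49.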
